A study of Danio rerio with 246 samples.

Results

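The cells described here are the 7 of 48 sorted cells of the rag2_GFP reporter line that held transcripts of the antigen receptor recombinase, set beside the other 41 cells of the same sort. A cell counted as a member when rag1, rag2 or dntt reached 10 counts per 1e+06 reads of that cell (CPM). The members were thus chosen by their measured rag1, rag2 and dntt levels, and the levels of these 3 genes are given as a description and support nothing else. The 7 cells were 14.6% of the line (95% exact Clopper-Pearson interval 6.07 to 27.8%, counting error only).

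The study sorted single cells by fluorescence from 6 transgenic reporter lines of zebrafish, and counts are given for 246 cells. Each was amplified with a modified Smart-seq2 protocol, which reads whole transcripts without molecular identifiers. All 48 cells of interest came from the kidney marrow, the blood-forming organ of the adult fish, and sat on plate 2. The line is labelled only with the names rag2 and GFP, and no label gives the strain, age, promoter fragment, sort gate or the number of animals. The 48 cells are therefore 1 sample, cells are not replicates, and no p-value was made for any difference below.

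RAG1 and RAG2 together form the enzyme that cuts antigen receptor genes so that their segments can be joined, and dntt encodes terminal deoxynucleotidyl transferase, which adds untemplated bases at the joints. In B cell development the heavy chain gene is generally rearranged before the light chain gene, and the recombinase is shut down once a working receptor reaches the surface. A mature B cell carries immunoglobulin with the signalling partners CD79a and CD79b, and presents antigen on class II molecules assembled with the invariant chain CD74.

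The threshold fell in a wide gap. The lowest member, in well C10, had its highest recombinase gene at 342 CPM, and the highest cell outside, in well C03, reached 6.87 CPM. The other 40 cells outside had no read of any of the 3 genes. Member cells held 99811 to 1828641 reads with a median of 739285, and the cells outside 94468 to 1495856 with a median of 700764. One read was worth 10.02 CPM in the shallowest member, in well C07, so a single read passed the threshold there. The intervals in this text cover counting error only, since PCR copies are not independent molecules.

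The 3 genes did not come together in most members. The gene rag1 was at 18806 CPM in well C07, at 10040 CPM in well D08, at 1540 CPM in well D11 and at 0 reads in the other 4 members. The gene rag2 was at 3188 CPM in well B07, 2221 in D11, 1736 in D08, 1669 in D02, 567 in C11 and 342 in C10, and had no read in C07. The gene dntt was at 142 CPM (98 reads) in D08 and at 110 CPM (11 reads) in C07, which were also the 2 cells with the highest rag1. Only the cell in D08 held all 3 genes, and B07, C10, C11 and D02 were members by rag2 alone.

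**Figure D1:**
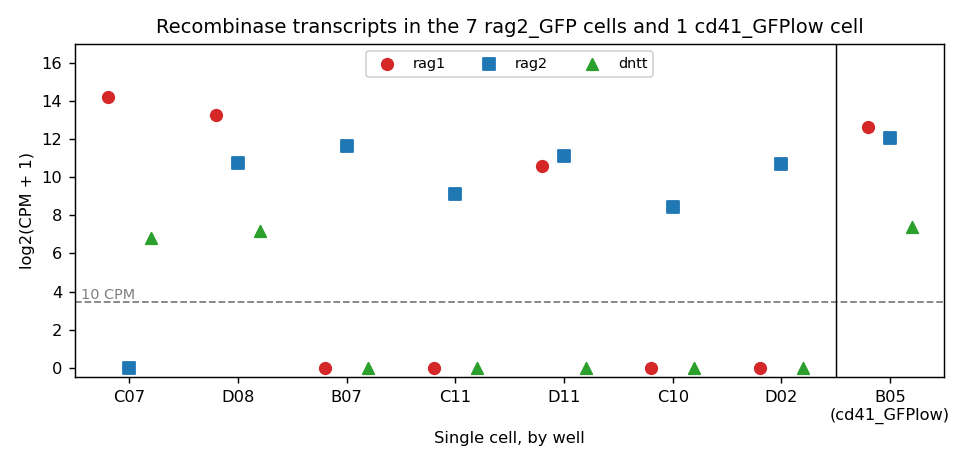
Levels of rag1, rag2 and dntt in the 7 member cells and, right of the vertical line, in 1 cd41_GFPlow cell that also held all 3 genes, as log2(CPM + 1); the dashed line is the 10 CPM threshold. The cells in wells C07 and D08 have the highest rag1 among the members and are the ones with dntt, and 4 members show rag2 alone.

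The members were not alike beyond these genes. The lists of B cell receptor signalling, class II presentation and immunoglobulin genes, together with a list of motile cilia genes chosen after the values were seen, set them apart as 3 kinds of cell. The levels of these list genes given below describe the kinds and are no separate support for them. The cells in B07, C11 and D11 held the gene set of a B cell with a light chain, those in C07 and D08 held early lymphoid and B lineage genes without a light chain, and those in C10 and D02 held no B cell receptor signalling gene.

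The list of 17 B cell receptor signalling genes summed to 19947 CPM in B07, 16647 in C11 and 15312 in D11. It summed to 1012 CPM in C07 and 1261 in D08, and to 0 reads in both C10 and D02. The 41 cells outside ranged from 1693 to 24369 CPM with a median of 9741. The cells in B07, C11 and D11 thus lay above that median, and the other 4 members below the lowest cell outside. At least 3 genes of the list reached 10 CPM in 3 of 7 members and in 40 of 41 cells outside. This list does not mark B cells alone, since 31 of 43 cd41_GFPlow and 17 of 47 mpx_EGFP cells also held 3 of its genes.

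**Figure D2:**
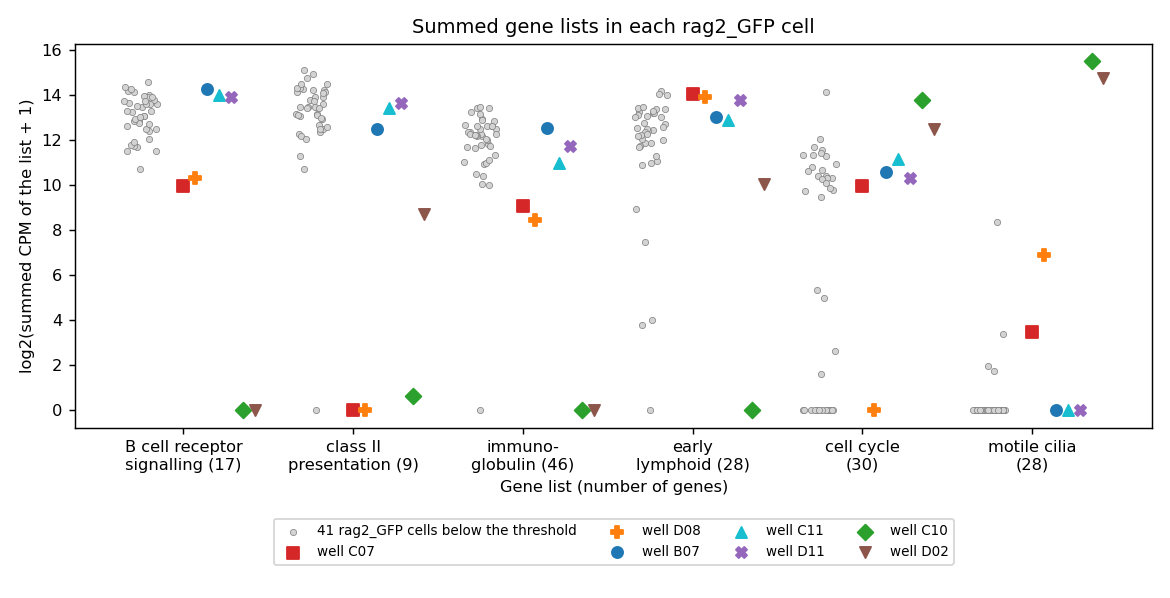
Summed level of 6 gene lists in each of the 48 rag2_GFP cells, as log2(summed CPM + 1); grey points are the 41 cells below the threshold and coloured symbols the 7 members, with the number of genes in brackets. In B cell receptor signalling the cells in B07, C11 and D11 lie among the grey points, C07 and D08 below them, and C10 and D02 at 0, while C10 and D02 lie above every other cell in motile cilia genes.

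Receptor components came first in that split. The signalling subunit gene cd79a was at 3452 CPM in B07, 1746 in C11, 757 in D08, 627 in D11 and 361 in C07, and at 0 in C10 and D02. It reached 10 CPM in 5 of 7 members and in 22 of 41 cells outside, whose median was 226 CPM and whose highest was 4712. Its summed level was 717 CPM (95% exact Poisson interval 697 to 738) in the members and 706 CPM (696 to 717) outside, a ratio of 1.02 (0.983 to 1.05). Over the 5 members other than C10 and D02 it was 1473 CPM. The partner cd79b was found in D11 (2581 CPM) and D08 (504 CPM) and in 23 of 41 cells outside. The membrane protein gene cd37, typical of mature B cells, was at 5039 CPM in C11, 4584 in B07 and 4169 in D11, with no read in the other 4 members, and reached 10 CPM in 35 of 41 cells outside.

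Heavy chain transcripts were present in both of the B lineage kinds. The constant region gene ighm, which encodes the IgM heavy chain, was at 2300.4 CPM in D11, 755 in C11, 541 in C07 and 185 in D08. It reached 10 CPM in 25 of 41 cells outside, with a median of 1591 and a highest value of 8813 CPM. Every member with ighm was therefore in the range outside, and 3 of the 4 were below its median. In C07 ighm was the only gene of the immunoglobulin list with a read. In the cd41_GFPlow line, 10 of the 42 cells below the recombinase threshold also reached 10 CPM of ighm, up to 540 CPM. Those 42 cells had no read of cd37, pax5 or igic1s1, so ighm at the levels of C07 and D08 does not mark B lineage cells alone. Summed ighm was 468 CPM (451 to 485) in the members and 2453 CPM (2434 to 2473) outside, 5.25-fold (5.06 to 5.44) higher outside. Without C10 and D02 the summed level of the members was 961 CPM. The gene ight, whose product is the zebrafish IgZ heavy chain, was at 3917 CPM in B07, which had no ighm read, and in 12 of 41 cells outside. No cell of the 48 held both ighm and ight at 10 CPM. The delta chain gene ighd was at 83.3 CPM in D11, in no other member, and in 2 cells outside. Immunoglobulin variable and constant segments resemble each other closely, so reads may have been split or lost among them, and levels of single segments are uncertain.

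Light chain transcripts were part of what defined the 2 B lineage kinds, so their split is given as a description. The 11 light chain genes summed to 1332 CPM in B07, 1285 in C11 and 954 in D11, inside the range of the cells outside (0 to 3112 CPM, median 1504). They had no read in C07, D08, C10 or D02. The most widely found of them, igic1s1, was at 381 CPM in B07, 484 in C11 and 466 in D11 and reached 10 CPM in 38 of 41 cells outside (92.7%; exact interval 80.1 to 98.5%). Invariant chain genes, of the class II list that also set the kinds apart, were read in the same members. The gene cd74a was at 8309 CPM in C11, 6977 in D11 and 4474 in B07, with no read in the other 4 members. It reached 10 CPM in 3 of 7 members (42.9%; 9.90 to 81.6%) and in 39 of 41 cells outside (95.1%; 83.5 to 99.4%). With each cell thinned to 200000 reads the shares were 3 of 6 and 34 of 35. The members without cd74a include C10 and D02, which held no B cell receptor signalling gene. Summed cd74a was 2455 CPM in the 7 members and 6408 outside, and 5042 CPM in the members without C10 and D02.

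Neither light chain nor cd74 was found in 4 of 7 members and in 2 of 41 cells outside. Of those 2, the cell in A01 held the T cell kinase gene lck at 2762 CPM, and the cell in B01 held ighm at 2059 CPM. A further cell outside, in D06, had cd74 without a light chain, and the remaining 38 had both.

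**Figure D3:**
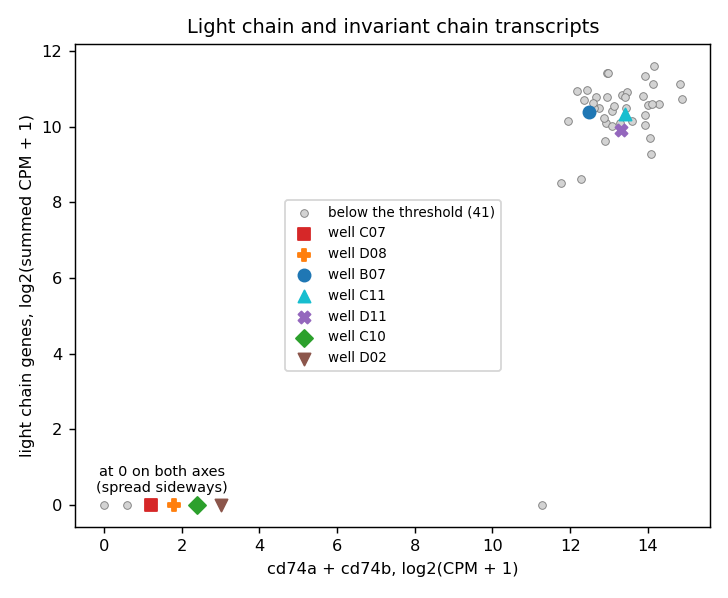
Summed level of 11 light chain genes against that of the invariant chain genes cd74a and cd74b in each rag2_GFP cell, as log2(CPM + 1). The members in B07, C11 and D11 lie among the cells below the threshold, and 4 members and 2 other cells are at 0 on both axes, where the symbols are spread sideways so that each can be seen.

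The cells in C07 and D08, the pair with dntt, held transcripts of early lymphoid regulators. The list of 28 early lymphoid genes summed to 16992 CPM in C07 and 15594 in D08, against 14045 in D11, 8429 in B07, 7663 in C11, 1057 in D02 and 0 in C10. Cells outside ranged from 0 to 18602 with a median of 5653 CPM, so even the pair stayed within that range. The transcription factor gene sox4, active in lymphoid progenitors, was at 1503 CPM in C07 and 3599 in D08, at 0 in the other 5 members, and at 1556 CPM in 1 of 41 cells outside (identifier ENSDARG00000004588; the second gene of that symbol had no read in any member). Summed sox4 was 407 CPM in the members and 44.9 outside, 9.05-fold (8.44 to 9.71) higher, and the remaining 5 members had 835 CPM without C10 and D02.

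The chromatin protein gene hmga1a was at 8406 CPM in C07 and 3783 in D08, and at 965 in B07. It reached 10 CPM in 10 of 41 cells outside, the highest at 5545 CPM. Summed hmga1a was 626 CPM in the members and 613 CPM outside. The repressor gene gfi1, needed in early blood and lymphoid cells in the mouse, was at 1322 CPM in C07 and 805 in D08. It was in 3 of 41 cells outside, up to 3440 CPM, and its summed level was 106 CPM in the members and 143 CPM outside. The B lineage factor gene ebf1 was at 1112 CPM in C07 and 500 in D08, but also at 1808 in D11 and 1351 in B07, and in 17 of 41 cells outside. The progenitor regulator gene myb was at 842 CPM in C07 only among members, and in 1 of 41 cells outside at 1392 CPM. The surface glycoprotein gene cd34 was at 2336 CPM in D08 only among members. It was in 2 of 41 cells outside, up to 1086 CPM. The tetraspanin gene cd81, a partner of the B cell co-receptor in mammals, was counted in the mature B cell list. It was at 3166 CPM in C07, 2433 in D08 and 921 in D02, and in 4 of 41 cells outside, up to 7228 CPM.

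Other early genes did not follow the pair. The gene lmo2 of the early lymphoid list was at 3733 CPM in C11, 2877 in D11 and 1386 in B07. It had no read in C07, D08, C10 or D02, and reached 10 CPM in 15 of 41 cells outside, up to 3751 CPM. The chemokine receptor gene cxcr4, which holds B cell precursors in the marrow in mammals, was at 6316 CPM in D08 and 2715 in C07 (identifier ENSDARG00000041959). It was also at 2998 in D11, 2731 in B07 and 1905 in C11, and in 29 of 41 cells outside. The second gene of that symbol (ENSDARG00000057633) was at 4587 CPM in D11 and 1456 in B07, with no read in the other members. It reached 10 CPM in 10 of 41 cells outside, up to 4212 CPM. The factor gene foxo1, which acts on rag gene expression in mouse B cell precursors, was at 1311 CPM in D11, with no read in any other of the 48 cells (identifier ENSDARG00000061549). The other gene of that symbol (ENSDARG00000099555) had no read in any member and reached 10 CPM in 3 of 41 cells outside, up to 2589.7 CPM. The gene pax5, which fixes B cell identity, was at 1859 CPM in B07 and 1149 in D11, at 0 in C07 and D08, and in 13 of 41 cells outside. The genes il7r, lef1, flt3 and arpp21, which mark lymphoid precursors in mammals, had no read in any member or in any cell outside.

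**Figure D4:**
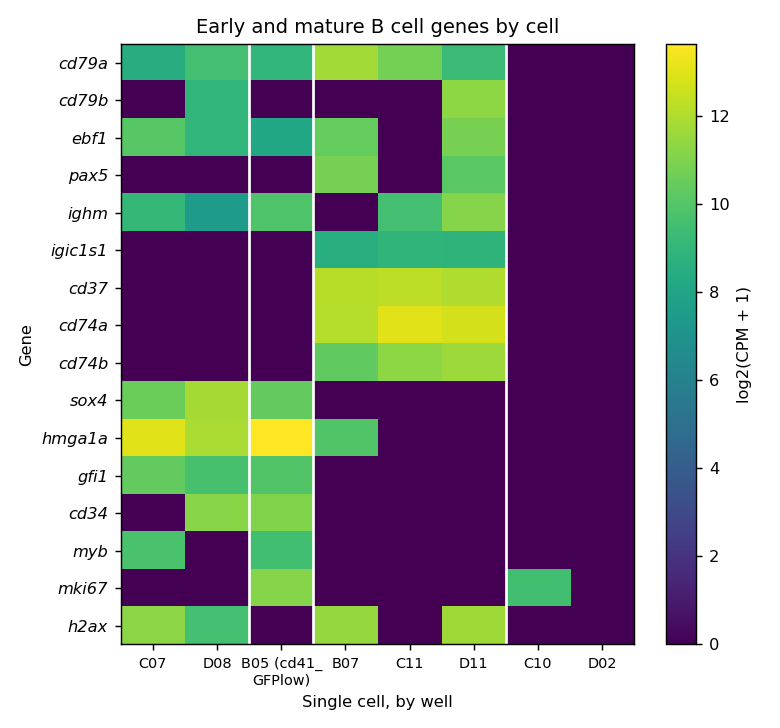
Levels of 16 genes, as log2(CPM + 1) on the colour scale, in the 7 member cells and in the cd41_GFPlow cell of well B05; white lines separate the kinds of cell named in the text. The cells in C07, D08 and cd41_GFPlow B05 share cd79a, ebf1, ighm, sox4, hmga1a and gfi1 and are at 0 for cd37, cd74a and igic1s1, whereas C10 and D02 are at 0 for nearly all genes shown.

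Genes of DNA break handling were spread over the members. The histone variant gene h2ax, whose product is phosphorylated around double-strand breaks, was at 3254 CPM in D11, 2874 in B07, 2445 in C07 and 759 in D08, and at 0 in C10, C11 and D02. It reached 10 CPM in 4 of 7 members (57.1%; 18.4 to 90.1%) and in 7 of 41 cells outside (17.1%; 7.15 to 32.1%), in 3 of 6 and 6 of 35 after thinning, and the highest cell outside was at 1504 CPM. Summed h2ax was 898 CPM (875 to 921) in the members against 101 outside, 8.91-fold (8.50 to 9.34) higher. Without C10 and D02 the members' sum was 1844 CPM, a log2 ratio of 4.18 where it was 3.14. The kinase gene prkdc, part of the machinery that joins the cut ends, came from C11 alone at 4132 CPM and from 1 cell outside. The nuclease gene dclre1c (Artemis), which opens hairpin ends, was at 849 CPM in C10 alone, and the damage kinase gene atm at 187 CPM in D08 alone. The recombinase cofactor gene hmgb1b was at 1222 CPM in C07, 531 in D08 and 369 in D02, and reached 10 CPM in 5 of 41 cells outside, up to 2988 CPM. Its sister gene hmgb1a had no read in any member and reached 10 CPM in 8 of 41 cells outside. The ligase gene lig4 and the break response genes tp53bp1 and rad50 also had no read in any member, and were in 2, 1 and 1 cells outside.

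The cells in C10 and D02 stood apart from all others of the line. Neither had a read of an immunoglobulin, B cell receptor signalling, cd74 or T cell list gene. The pan-leukocyte gene ptprc also had no read in either, but it had none in the members C07 and C11 as well. It reached 10 CPM in 32 of 41 cells outside, so its absence is not particular to C10 and D02. Of 28 motile cilia genes, C10 held 24 and D02 held 20 at 10 CPM or more, summing to 46497 and 27710 CPM. The highest sum among the cells outside was 324 CPM, and among the 198 cells of the other lines it was 1302 CPM, with at most 2 of the genes in any cell. Among these genes foxj1, the master regulator of motile cilia, was at 1271 CPM in C10 and 1472 in D02, and the axonemal gene tekt1 at 3195 and 3144 CPM.

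These 2 cells also held cell cycle transcripts. The list of 30 cell cycle genes summed to 14359 CPM in C10 and 5747 in D02, with 12 and 6 genes at 10 CPM, against 0 to 2278 CPM in the other 5 members and a median of 864 outside (highest 17984). The mitotic genes nusap1, ccna2, cdc20 and ccnb3 were in both, with cdc20 at 1776 CPM in C10 and 718 in D02, and these 4 genes had no read in any cell outside. A list of 10 germ cell genes, also chosen after the values were seen, showed tdrd7a at 2104 CPM in C10 and 4119 in D02, and sycp1 at 1575 and 3303 CPM. The genes piwil1 (727 CPM) and spo11 (902 CPM) were found in D02, while dazl, dnd1, sycp2, sycp3, piwil2 and tdrd9 had no read in either cell. No kidney list gene had a read in either. The cells are not given a cell type name here.

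The 2 cells were deep and rich in genes. C10 had 1828641 reads and 1951 detected genes, D02 had 1497068 reads and 1616 genes, and the median outside was 755 genes. Ribosomal protein genes took 0.415% of the reads of C10 and 0.231% of D02, against at least 8.63% in each of the other 5 members and 1.58 to 26.8% outside. They shared 643 genes at 10 CPM, of which 379 reached that level in no other rag2_GFP cell. Their part in the pooled results below was measured by leaving them out.

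Likeness of whole profiles was taken as a description over 11083 genes. It set C10 and D02 apart but did not clearly part the other members into kinds. Pearson correlations of log2(CPM + 1) across genes were low throughout, and cells of 1 plate share their preparation. C10 and D02 were nearest to each other (r = 0.369), with the next cell at 0.140 for C10 and 0.105 for D02. C07 and D08 were nearest to each other (r = 0.317), and the next nearest to both was the same lck_GFP cell of the same plate (r = 0.299 for each). After that, C07 was nearest to a rag2_GFP cell below the threshold (r = 0.297) and to further lck_GFP cells (r = 0.296 and 0.294). D08 was then nearest to an lck_GFP_rag1 cell of another plate (r = 0.299), an lck_GFP cell (r = 0.293) and a cd41_GFPlow cell (r = 0.290). B07, C11 and D11 were each nearest to a rag2_GFP cell below the threshold (r = 0.336, 0.351 and 0.332). Among the members, B07 with D11 (r = 0.319) was as alike as C07 with D08. The correlation of C07 with B07 (r = 0.267) was near that of B07 with C11 (r = 0.277).

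Pooling the 7 members gave 1 profile of 6481041 reads that mixes these kinds. C10 and D02 contributed 51.3% of those reads. Among 7562 genes at 10 CPM in either pool, 31.4% were at least 4-fold higher in the members and 48% at least 4-fold lower (pseudocount 1 CPM). The median log2 ratio of all tested genes was -1.42. The members were the fewer cells, and a gene read in only a few cells outside can be missed in them. The excess of lower genes is therefore not read as lower expression in the members. The part of the unequal cell numbers was not tested. Of the early lymphoid genes 4 of 18 measured were higher and 5 lower, with a median of -0.05. These were 22.2 and 27.8% of the list, both below the shares of all genes, so the pool showed no early lymphoid excess. The 4 higher genes were foxo1, cd9b, sox4 and bach2. The higher foxo1 (ENSDARG00000061549) came from D11 alone. The gene cd9b came from D02 alone (686 CPM), a cell that held no B cell receptor signalling gene. The 5 lower genes were ikzf1 (log2 ratio -3.36), myb (-2.58), runx1 (-3.63), tcf12 (-4.94) and the other foxo1 gene (ENSDARG00000099555). The symbol foxo1 thus went both ways.

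The mature B cell list had 1 of 17 measured genes higher and 10 lower, with a median of -2.39. The higher gene was ccr7, from C10 alone. The 10 lower genes were 58.8% of the list's measured genes against 48% of all genes, and they included ighm, cxcr5, klf2b and s1pr4. B cell receptor signalling had 0 of 16 higher and 5 lower (31.25%), and class II presentation 0 of 8 higher and 2 lower (25%). Immunoglobulin genes had 1 of 21 higher (4.8%) and 9 lower (42.9%). In the B cell receptor signalling, class II and immunoglobulin lists smaller shares were called in both directions than among all genes (31.4% higher, 48% lower). Of 7 plasma cell genes 6 were lower (85.7%), among them xbp1, which had no read in any member and reached 10 CPM in 10 of 41 cells outside. Of 11 end-joining genes 5 were higher (45.5%) and 4 lower (36.4%), while the cell cycle list had 11 of 21 higher (52.4%) and 6 lower (28.6%). Among the members, the higher end-joining genes dclre1c (849 CPM) and xrcc6 (806 CPM) came from C10 alone.

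Without C10 and D02, the remaining 5 members gave 6276 tested genes, of which 17.7% were at least 4-fold higher and 63.9% at least 4-fold lower. Their median log2 ratio was -4.41. With 5 cells against 41 the same limit of unequal cell numbers holds, so this excess of lower genes is not read as lower expression either. The early lymphoid list then had 4 of 17 higher (23.5%) and 5 lower (29.4%) with a median of 0.60. The B cell receptor signalling list had 1 of 16 higher (6.25%) and 5 lower (31.25%) with a median of 0.21. The mature B cell list had 0 of 16 higher and 8 lower (50%) with a median of -2.72. All 11 cell cycle genes that were higher in the pool of 7 lost that call, leaving 0 of 10 higher and 7 lower (70%). The end-joining list had 3 of 10 higher (30%) and 5 lower (50%). The share of mature B cell genes that were lower was thus under that of all genes here and somewhat over it among the 7 members, so it did not set the list apart.

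In each direction 15 genes were named by a fixed rule of size and of the number of cells. Some of those higher in the members came mostly from C10 and D02. The casein kinase subunit gene csnk2a1 was at 3478 CPM in C10 and 2993 in D02, at 2961 in C11 and 966 in D08. The granule proteoglycan gene srgn was at 2447 CPM in D02, 2411 in C10, 1769 in C11 and 1191 in B07, and in 5 of 41 cells outside.

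The genes tmem110l and iftap had almost no reads outside. The gene tmem110l was at 1443 CPM in C07, 969 in D08, 775 in C10 and 464 in D11, with 1 cell outside at 15.7 CPM and the rest under the threshold. The gene iftap, whose product associates with intraflagellar transport, was at 795 CPM in B07, 268 in D08, 170 in D02 and 143 in C10, with no cell outside above 6.33 CPM. The bile acid enzyme gene hsd3b7 was in 5 members, from 192 CPM in B07 to 2455 in C07, and in 1 cell outside. The lipid kinase gene pik3c2b was at 2865 CPM in C07, 2198 in D11, 219 in D08 and 46.04 in B07, and at 0 in C10, C11 and D02. The others, with log2 ratios from 2.87 to 3.999, were riok3, gnaia, dnajb1b, tm9sf3, ip6k2, adgre10 and dedd2.

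The same rule applied to the 5 members without cilia genes, after the values were seen, was led by the growth arrest gene gadd45g (identifier ENSDARG00000019417). It reached 10 CPM in B07, C07 and D08, at a summed 631 CPM over the 5 cells, and had no read in the 41 cells outside. The second gene of that symbol (ENSDARG00000016725) reached 10 CPM in 0 of 7 members and in 1 of 41 cells outside.

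The genes lower in the members were mostly read in none of them. The phosphatase gene inpp5d, which restrains B cell receptor signalling, had no read in any member and reached 10 CPM in 15 of 41 cells outside, where its summed level was 898 CPM. That is at least 1939-fold lower against a floor of 3 reads over the members. By the exact interval, a gene found in 0 of 7 cells may still be in up to 40.96% of such cells. The count of members thus limits this more than the depth. The follicle homing receptor gene cxcr5 had 1 read in 1 member, in C11, and reached 10 CPM in 16 of 41 cells outside, a ratio of 4644 with a counting interval of 833 to 183446. The cytoskeletal gene tpm3 was at 20.6 CPM in B07 and 21.6 in C11 and reached 10 CPM in 25 of 41 cells outside. The remaining 12 were bpifcl, il12rb2, illr1, srsf2a, ewsr1b, sftpba, gpx1a, ripor2, pde4b, gnai2, capza1b and plekho2, none of which reached 10 CPM in a member, and each did so in 13 to 20 cells outside.

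Other lines held few such cells. In Runx123_GFP 2 of 39 cells passed the same threshold, one with rag2 at 147 CPM (49 reads) and the other with a single rag1 read in 47630 reads. No cell did among 38 lck_GFP, 31 lck_GFP_rag1 and 47 mpx_EGFP cells, for which the exact intervals reach 9.25, 11.2 and 7.55%. In cd41_GFPlow 1 of 43 cells passed, in well B05 of plate 3, with rag1 at 6354 CPM, rag2 at 4286 and dntt at 165. Each line was sorted on its own reporter, and the share in the marrow and the choice by the sort cannot be told apart.

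That cd41_GFPlow cell was of another line but was picked by the same recombinase rule. The genes compared here were those described for C07 and D08, so the likeness is a description and no separate support. The cell held several of them. It had cd79a at 497 CPM, ebf1 at 280, ighm at 931, sox4 at 1323, hmga1a at 12737 and gfi1 at 984 CPM, with no read of cd74a or cd74b. It had cd34 at 2127 CPM, a gene found in D08 but not in C07. Like the other 42 cells of its line it had no read of cd37, pax5 or igic1s1. Of the other 42 cells of its line, gfi1 was found in none, cd79a in 1, ebf1 in 1 and ighm in 10, while sox4 was in 11, cd34 in 16 and hmga1a in 36. The invariant chain gene cd74a was in 31 of them. It also differed from the pair. It held 22 of 30 cell cycle genes, with mki67 at 2283 CPM, where C07 held 3 and D08 none, and it had no h2ax read. Of 21 genes that C07 and D08 shared at 10 CPM and that no other member and at most 1 cell outside reached, it held 2, sox4 and sid1. The other 42 cells of its line held 0 to 5 of them with a median of 2.5, so beyond sox4 and the named B lineage genes the 3 cells had few of these genes in common. Several of the 21 lay at the threshold in a member of the pair. The genes slc38a4, ercc6l2, zmiz1, glcci1 and egln2 had 10.02 CPM in C07, the worth of 1 read. The genes tbl1xr1a and cry4 had 10.1 CPM in D08. The small overlap therefore says little.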

How the data were processed

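Each library was 1 sorted kidney marrow cell. The deposited table holds read counts per Ensembl gene and cell, made by the authors with STAR, Picard and featureCounts on GRCz10, per the submitters' processing notes, which give no version. The mapping table gives, per the file headers, mapping values per well, of which the percent of read pairs that mapped uniquely and the PCR duplicates as a fraction were used. Its 138 wells without a counted cell were left out. The table holds 21876 genes, of which 2527 have no symbol and count in totals only.

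CPM was the count over the cell's total times 1e+06, not divided by gene length, so levels of different genes are not compared. Within each set the counts of all cells were added up. A gene was tested at 10 CPM or more in either set and called at a 4-fold difference of log2(CPM + 1). The genes rag1, rag2 and dntt were left out of these comparisons. Summed counts and folds have exact Poisson 95% intervals, and shares exact Clopper-Pearson 95% intervals. Thinning drew 200000 reads per cell and dropped shallower cells, 1 member and 6 others. Doublets were not called, as each well was sorted with 1 cell per the labels. The calling step recovered the changes put into simulated Poisson counts before use. The simulated cells shared a mean profile save for those changes, without the cell-to-cell spread of real cells. The check therefore gives no error rate for the calls in these data.

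The members and gene lists were chosen with earlier results of these data known. The motile cilia and germ cell lists were added after the values were seen. Of 308 list entries 221 matched by symbol, 22 by synonym and 17 by a shortened symbol, 7 repeated a gene and 41 did not match. The matches of cd3eap, pax2a and pou2f2a to other genes were removed. A named gene was among the 15 largest log2 ratios in a direction, with 10 CPM in 50% of the members or 30% of the cells outside, and a summed 50 CPM there. A gene that this rule picks is not reported here. Alternatives were mean per-cell CPM, median-of-ratios scaling, other count minimums, pseudocounts, folds and member thresholds, thinning, and leaving out single cells. Calculations used Python 3.11.15, numpy 2.4.6, pandas 2.3.3 and scipy 1.17.1.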

Additional observations from a re-analysis of the deposited data

Results flagged for a closer look

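A cell far from the other 6 members was found for 6 lists. The cut-off was set for about 1 such gap by chance in 20 groups, and many measures were looked at. All of these lists save the cell cycle list were at or near 0 in most members. A single cell with reads then makes a large gap, so that rate does not apply to them. The plasma cell list was at 2836 CPM in B07, from hsp90b1 (2798 CPM) and edem1 (38.1 CPM), and at 0 in the other members, while xbp1 had no read in B07. The cell cycle list was at 14359 CPM in C10, with D02 next at 5747 CPM. The germ cell list was at 9052 CPM in D02, with C10 next at 3680 CPM. The T cell list was at 571 CPM in C07, all from bcl11ba, with lck at 0 in that cell. The NK and cytotoxic list was at 18.8 CPM in D08, and the kidney list at 155 CPM in D08, all from nphs1.

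The other values came from lines outside the comparison. The cd41_GFPlow cell in well B05 had rag1 at 6354 CPM, rag2 at 4286 CPM and dntt at 165 CPM. The Runx123_GFP cell in well C10 had rag2 at 147 CPM.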

How the results depend on the processing

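No paired analysis was possible because the cells carry no shared replicate numbers and no test was made. The count of mature B cell genes lower in the members stayed within 1.5 times of 10 under every alternative run. Early lymphoid genes higher fell from 4 to 2 without the top cell of each gene (3 to 4 leaving out single members). Early lymphoid genes lower went from 5 to 3 with mean per-cell CPM, a minimum of 50 CPM or a pseudocount of 10 CPM, and to 8 in cells with the B cell receptor signalling list (3 members, 40 others). Mature B cell genes higher went from 1 to 0 with 50 CPM, in cells with that list, without the top cell, without C10 (0 to 1 over single members) and without C10 and D02. B cell receptor signalling genes higher went from 0 to 2 in cells with that list and to 1 without C10 and D02. Cell cycle genes higher went from 11 to 0 in cells with that list, 5 without the top cell, 4 without C10 (4 to 11 over single members) and 0 without C10 and D02. The cells without C10 and D02 were chosen after seeing the data. Members numbered 8 at 1 CPM, 7 at 50 CPM and 6 after thinning. Of 31 called genes 27 to 31 kept a 4-fold ratio in the same direction per setting. The genes dnajb1b (-4.84) and adgre10 (-2.81) reversed in cells with the B cell receptor signalling list. The cause of these changes was not tested. Other count minimums and the 8-fold rule leave the ratios unchanged, so all 31 were kept there by construction. At 8-fold, dedd2 (2.87) and ighm (-2.39) would lose their call. Members by rag1 or rag2 alone were the same 7 cells. The number of member cells, more than reads, limits every share.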
